A study of Mus musculus with 8 samples.

Results

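The genes of the respiratory chain were followed in colon RNA sequencing of mice with colitis. They were taken by symbol: the Ndufa, Ndufb, Ndufc, Ndufs and Ndufv subunit genes of complex I, Sdha to Sdhd of complex II, the Uqcr genes of complex III, the Cox4 to Cox8 genes of complex IV, the Atp5 genes of complex V, and every gene whose symbol starts with mt-. This gave 98 of the 18262 listed genes. Of these, 84 are nuclear subunit genes (36 of complex I, 4 of complex II, 8 of complex III, 18 of complex IV and 18 of complex V), 13 are the protein-coding genes of the mitochondrial genome and 1 is the pseudogene Cox5b-ps. Ndufa4 and Ndufa4l2 were counted with complex IV, where their products are now placed, and so was Cox7a2l. The 4 DSS + GAA libraries came from colon of wild-type (WT) mice made colitic with DSS, dextran sulfate sodium, which damages the gut lining, and given 20 mg/kg of GAA, ganoderic acid A, a compound from Ganoderma mushrooms. The 4 DSS libraries came from colon of wild-type mice with DSS colitis alone. Both groups therefore carry DSS, and no healthy colon was analysed here. The treatment labels of the 4 DSS + GAA libraries read 20, 21, 22 and 23 mg/kg, while the protocol and design text give 20 mg/kg, and the 4 were kept as 1 group. The series title asks whether GAA eases colitis through RORA and the IL-17 pathway. Strain, age, days of treatment and pooling are not given in the sources used here.

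The respiratory chain of the inner mitochondrial membrane passes electrons from NADH (complex I) and succinate (complex II) through coenzyme Q, complex III and cytochrome c to oxygen (complex IV), and complex V, the ATP synthase, uses the proton gradient this builds to make ATP. Most subunits are encoded in the nucleus and imported, while a small core set of complexes I, III, IV and V is transcribed inside the mitochondrion from its own circular genome, so each of those complexes needs products of both genomes. In the colon the chain is best known for burning butyrate, the short-chain fatty acid that bacteria supply to the surface epithelium.

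The deposited values were TPM, a share of transcripts, in which reads are divided by transcript length and by the library's total. Every library adds up to a total of 1000000 TPM, and sequencing depth is unknown. Genes with at least 1 TPM in at least 4 of the 8 libraries were compared on the log2(TPM + 1) scale with limma, and an adjusted p under 0.05 over all 14217 tested genes counted as passing. A log2 fold change is DSS + GAA over DSS on that scale, with its standard error (SE). Whether the libraries stem from different animals is not labelled, and p-values therefore cover the spread among samples, which may be technical. Epithelium markers, which define the lining of the labelled colon, were detected in all libraries, with a summed level of 23200 to 25185 TPM in DSS + GAA libraries and 15058 to 18507 TPM in DSS libraries. In bulk tissue such as this, fewer cells of a type and less RNA per cell cannot be told apart.

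A large share of the nuclear subunit genes rose in DSS + GAA colon, and none of the mitochondrially encoded genes passed the test. Of 82 tested nuclear subunit genes, 34 rose, 2 fell and 46 did not pass (limma, adjusted p under 0.05). Among all tested genes 5.96% rose and 28.2% fell. The median log2 fold change of the 82 was 0.42, against -0.25 over all tested genes, and 77 of the 82 had a positive value. Among the 13 mitochondrially encoded genes 0 passed in either direction, 4 had an unadjusted p under 0.05, and their median log2 fold change was -0.42. The share of all tested genes with an unadjusted p under 0.05 was not taken. The groups did not overlap, with every DSS + GAA library above every DSS library, in 25 of the 82 nuclear genes (5.31% of all tested genes), and every DSS + GAA library was below every DSS library in 2 (27.6% of all tested genes). In the authors' deposited table, a false discovery rate under 0.05 was reached higher by 41 and lower by 3 of the 84 nuclear genes and by none of the 13 mitochondrially encoded genes, against 10.3% of all genes higher and 16.2% lower in that table.

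**Figure D1:**
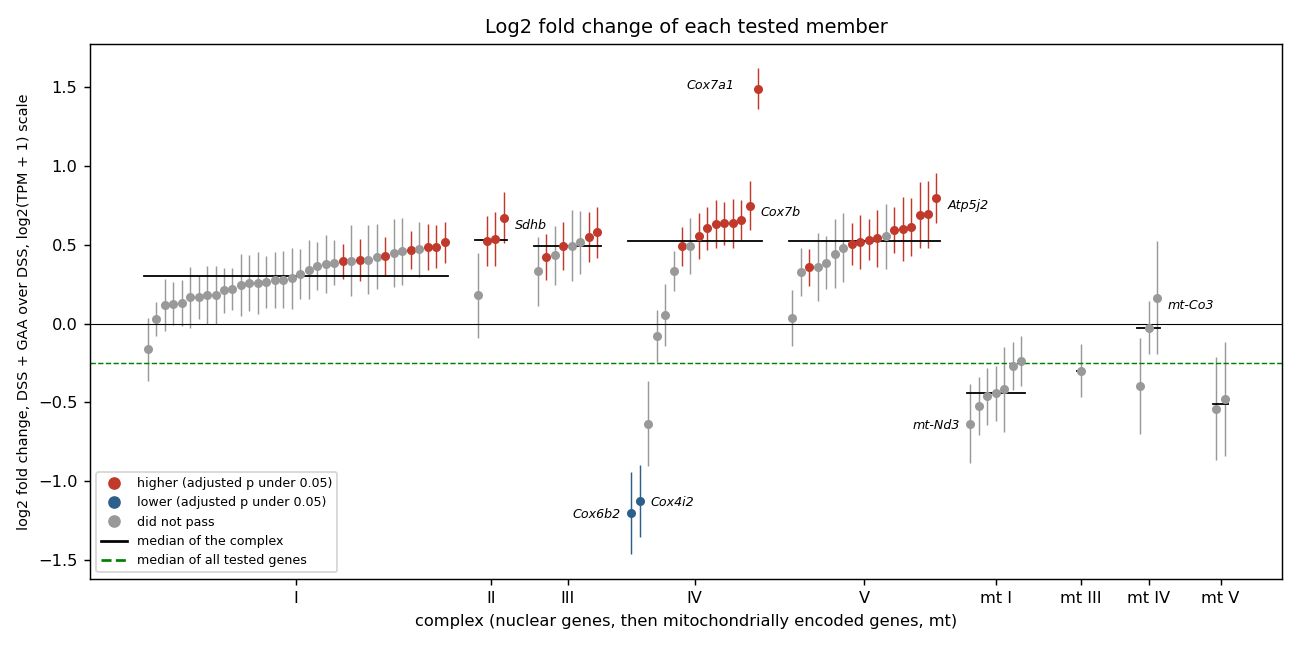
Each point is the log2 fold change (vertical axis, DSS + GAA over DSS, log2(TPM + 1) scale) of a tested gene with its SE, ordered within complexes I to V (horizontal axis), nuclear genes on the left and mitochondrially encoded genes (mt) on the right. Red points passed higher, blue points passed lower, black bars are medians of a complex and the dashed green line is the median of all tested genes, -0.25; the complex medians of nuclear genes lie between 0.30 and 0.53.

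DSS + GAA replicate 1 stood apart from the other libraries of its group in these genes, and also in genes outside them. It was the lowest of the 4 DSS + GAA libraries in 79 of the 82 nuclear genes. It lay above every DSS library in 25 of the 82, while all of the other 3 DSS + GAA libraries lay above every DSS library in 67. No share over all tested genes was taken for these counts. They describe how this library sits in its group and are not read as a result about the members. The summed level of the 84 nuclear genes was 20039 TPM in DSS + GAA replicate 1 and 26428, 30760.4 and 31297 TPM in DSS + GAA replicates 2, 4 and 5, against 19345.5, 19671, 20458 and 17614 TPM in DSS replicates 1, 2, 4 and 5. Its epithelium marker sum was 23200 TPM, against 24569 to 25185 TPM in the other 3, and lay above every DSS library. It had the highest sum of its group for 11 of the 13 cell marker lists, all but the epithelium markers and the skeletal muscle and heart markers. These sums were 25813 TPM for goblet cell markers (13353 to 21225 TPM in the other 3), 3553 TPM for B and plasma cell markers (1238 to 2460.4 TPM), 3914 TPM for smooth muscle markers (1618 to 2909 TPM) and 630 TPM for macrophage markers (160 to 403 TPM). The part of these cells in its lower subunit levels was not tested. Its sum was also the lowest of its group for mitochondrial import genes (774 TPM, against 1055 to 1380 TPM in the other 3). The same held for citric acid cycle genes (2456 TPM, against 3175 to 4045 TPM) and for the assembly factors of each complex. For the nuclear regulators of respiratory genes it had the highest sum (640 TPM, against 557 to 600 TPM). Without DSS + GAA replicate 1, 63 nuclear genes passed higher and 3 lower. Without DSS + GAA replicates 2, 4 or 5 in turn, 10, 14 and 15 passed higher, and without DSS replicates 1, 2, 4 or 5 in turn, 8, 19, 21 and 19 passed higher, with 2 lower each time. The share of all tested genes that passed higher moved too. Leaving out DSS + GAA replicate 1 gave 9.05%, while leaving out replicates 2, 4 or 5 of that group in turn gave 2.95%, 3.85% and 5.02%. Leaving out DSS replicates 1, 2, 4 or 5 in turn gave 2.59%, 3.78%, 5.21% and 5.26%.

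**Figure D2:**
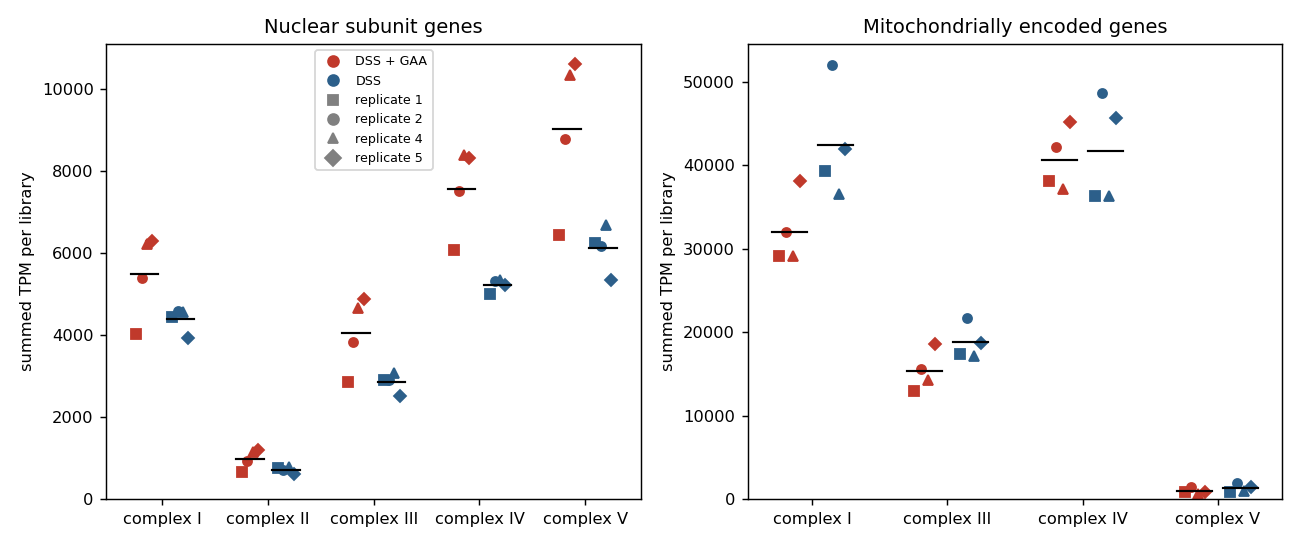
Summed TPM (vertical axis) of the genes of each complex in each library, for nuclear genes (left panel) and mitochondrially encoded genes (right panel), with DSS + GAA in red to the left of DSS in blue, a marker shape per replicate number and a black bar at the group mean. In the nuclear panel the square of DSS + GAA replicate 1 lies below the other 3 DSS + GAA libraries in every complex, and the groups are separate in complex IV alone.

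The size of these counts depended on how libraries were scaled. When libraries were scaled by a trimmed mean, the median of all tested genes moved to -0.004, the nuclear genes had a median of 0.69 with 59 higher (22 of complex I, 3 of II, 7 of III, 11 of IV and 16 of V) and 2 lower, and the mitochondrially encoded genes had a median of -0.15 with 0 passing in either direction. Of all tested genes, 13.3% then rose and 11.6% fell. The nuclear median exceeded the mitochondrial median by 0.84 in the TPM as deposited, a difference that a single factor per library can hardly move. With quantile normalization, which can move it, it was 0.91, and the nuclear median was then 0.415 above that of all tested genes, against 0.67 in the TPM as deposited. Summed over each library, the mitochondrially encoded genes held 4.04, 3.45, 2.63 and 3.28 times the TPM of the nuclear subunit genes in DSS + GAA replicates 1, 2, 4 and 5, against 4.86, 6.32, 4.45 and 6.12 times in DSS replicates 1, 2, 4 and 5. This ratio was lower in every DSS + GAA library than in every DSS library.

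Promoters of 68 nuclear members were in the RefSeq promoter table (GRCm38.p6), each from 250 bases before the gene's start to 50 after it, 73 promoters in all. They were searched on both strands for the core motifs of factors known as regulators of respiratory genes. The NRF1 core CGCATGCG was in 12.3% of the 73 member promoters, against 1.87% of all 32851 mouse promoters and 3.45% of the promoters of tested genes. The ETS and GABP core CCGGAAG was in 23.3%, against 8.86% and 15.6%. The YY1 motif AAGATGGCG was in 9.59%, against 1.40% and 2.69%, and the ERR core TCAAGGTCA was in 2.74%, against 0.423% and 0.255%. At least 1 of the 4 motifs was found for 12 of 24 members that rose and for 16 of 42 that did not pass. The NRF1 core was found for 5 of the 24 and 4 of the 42, and the ETS core for 10 and 7. The YY1 motif was found for 2 and 5, and the ERR core for 0 and 2 (Atp5g3 and Sdhd). A match is a string of letters and no evidence of binding, and no test was made of these shares. The 6 promoters printed here show that spread among members that rose: Atp5j (chr16:84834927-84835226 on the minus strand), the subunit F6 gene, holds an NRF1 core, a YY1 motif and an ETS core; Cox6a1 (chr5:115348909-115349208 on the minus strand) and Uqcr11 (chr10:80406772-80407071 on the minus strand) hold an NRF1 and an ETS core; and Sdhb (chr4:140961021-140961320 on the plus strand) holds an ETS core. Atp5j is 1 of 5 members with 2 promoters in the table, and its other promoter, not printed, holds none of the 4 motifs. Cox7a2 (chr9:79759804-79760103 on the minus strand) and Cox7a1 (chr7:30183921-30184220 on the plus strand), an isoform pair described with complex IV, hold none of the 4. Sequences run 5′ to 3′ along the gene's strand, with the motifs in capitals, and the motifs share no bases.
Atp5j: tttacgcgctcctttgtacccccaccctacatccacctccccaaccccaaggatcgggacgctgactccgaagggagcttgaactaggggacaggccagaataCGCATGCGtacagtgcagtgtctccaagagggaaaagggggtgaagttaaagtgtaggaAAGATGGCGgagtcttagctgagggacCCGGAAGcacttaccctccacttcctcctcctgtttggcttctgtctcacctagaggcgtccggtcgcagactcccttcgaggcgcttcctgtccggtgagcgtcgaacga
Cox6a1: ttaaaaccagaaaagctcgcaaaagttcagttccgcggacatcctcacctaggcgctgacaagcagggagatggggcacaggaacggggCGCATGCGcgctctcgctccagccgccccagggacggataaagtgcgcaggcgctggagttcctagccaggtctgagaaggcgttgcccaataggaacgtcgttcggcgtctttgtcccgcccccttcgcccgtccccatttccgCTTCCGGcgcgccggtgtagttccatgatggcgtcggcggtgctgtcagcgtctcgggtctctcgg
Uqcr11: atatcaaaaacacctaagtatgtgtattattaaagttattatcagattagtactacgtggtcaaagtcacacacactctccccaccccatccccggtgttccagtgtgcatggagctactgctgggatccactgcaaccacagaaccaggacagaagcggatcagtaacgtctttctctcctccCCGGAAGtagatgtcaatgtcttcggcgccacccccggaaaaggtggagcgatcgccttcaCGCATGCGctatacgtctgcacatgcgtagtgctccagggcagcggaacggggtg
Sdhb: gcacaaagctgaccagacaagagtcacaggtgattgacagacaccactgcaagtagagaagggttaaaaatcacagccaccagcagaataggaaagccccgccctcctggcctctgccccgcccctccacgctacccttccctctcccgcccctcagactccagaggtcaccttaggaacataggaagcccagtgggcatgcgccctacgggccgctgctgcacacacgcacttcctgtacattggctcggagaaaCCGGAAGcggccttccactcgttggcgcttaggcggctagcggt
Cox7a2: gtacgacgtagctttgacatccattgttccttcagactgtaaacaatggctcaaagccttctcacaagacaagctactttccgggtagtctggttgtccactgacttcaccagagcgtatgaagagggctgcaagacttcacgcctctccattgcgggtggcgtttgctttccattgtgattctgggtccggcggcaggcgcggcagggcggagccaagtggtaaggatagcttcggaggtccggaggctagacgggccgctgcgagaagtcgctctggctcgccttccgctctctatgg
Cox7a1: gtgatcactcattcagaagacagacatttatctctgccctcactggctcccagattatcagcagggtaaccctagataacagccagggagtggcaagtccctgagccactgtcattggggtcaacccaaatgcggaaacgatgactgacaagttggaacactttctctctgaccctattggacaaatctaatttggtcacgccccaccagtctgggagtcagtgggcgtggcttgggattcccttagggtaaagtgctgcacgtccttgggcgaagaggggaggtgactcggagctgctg

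Complex I, the largest complex, takes electrons from NADH. Of its 36 nuclear genes 7 rose and 29 did not pass (limma, adjusted p under 0.05), with a median log2 fold change of 0.30 and 35 of 36 values positive. All 7 that rose were among the 29 accessory subunits, which surround the catalytic centre. None of the 7 core subunits, which carry flavin, iron-sulfur clusters and the quinone site, passed, and 1 of the 7 had an unadjusted p under 0.05.

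Ndufa6, an accessory subunit of the matrix arm, had 247, 283, 289 and 318 TPM in DSS + GAA replicates 1, 2, 4 and 5, against 176, 191, 199 and 229.8 TPM in DSS replicates 1, 2, 4 and 5. Every DSS + GAA library was above every DSS library, and the log2 fold change was 0.51 (SE 0.13, limma adjusted p = 0.0170). Ndufa13, also known as GRIM-19 and first described in cell death, had 80.7, 98.1, 98.5 and 102 TPM in DSS + GAA libraries, against 68.1, 71.1, 74.5 and 59.0 TPM in DSS libraries. The groups did not overlap, DSS + GAA replicate 1 lay nearest to DSS, and the log2 fold change was 0.47 (SE 0.12, limma adjusted p = 0.0187). Ndufb9, an accessory subunit of the membrane arm, had the highest mean of the nuclear complex I genes, with 344, 442, 472 and 487 TPM in DSS + GAA libraries, against 293, 314, 310.1 and 317 TPM in DSS libraries. The DSS libraries were close together and below all DSS + GAA libraries, with a log2 fold change of 0.49 (SE 0.14, limma adjusted p = 0.0246). The other 4 that rose were Ndufa1, Ndufa11, Ndufb7 and Ndufb8, with log2 fold changes of 0.40 to 0.49.

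No complex I call stood in all 8 fits that left out 1 library. Without DSS + GAA replicates 4 or 5 in turn, 5 of the 7 calls were lost, and without DSS replicates 2, 4 or 5 in turn, 3 were. When DSS + GAA replicate 2 or DSS replicate 1 was left out, none of the 7 passed and no complex I gene rose, while without DSS + GAA replicate 1 the 7 were among 23 that rose. Ndufb1, whose listed ID the GENCODE vM21 annotation names Ndufb1-ps, a non-coding gene, had 38.4 ± 3.18 TPM in DSS + GAA libraries and 37.7 ± 2.67 TPM in DSS libraries (SD, n = 4 each), with a log2 fold change of 0.03 (SE 0.11).

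Complex II, succinate dehydrogenase, also works in the citric acid cycle and has no mitochondrially encoded subunit. Its catalytic genes Sdha and Sdhb and the membrane anchor Sdhc rose, and the other anchor gene, Sdhd, did not pass. Sdhb, the iron-sulfur subunit (chr4:140961203-140979193 in GENCODE vM21 on GRCm38, which is mm10), had 129, 178, 197 and 212 TPM in DSS + GAA replicates 1, 2, 4 and 5, against 110.4, 109, 122 and 101 TPM in DSS replicates 1, 2, 4 and 5. Every DSS + GAA library was above every DSS library, with a log2 fold change of 0.67 (SE 0.16, limma adjusted p = 0.0145), and this was the sole complex II call that stood in all 8 fits with 1 library left out.

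Sdha, the flavoprotein that oxidises succinate, had 217, 262, 321 and 337 TPM in DSS + GAA libraries, against 213, 181, 220.2 and 162 TPM in DSS libraries. DSS + GAA replicate 1 fell inside the DSS range, and the log2 fold change was 0.54 (SE 0.17, limma adjusted p = 0.0381). Sdhc had 112, 153, 162 and 178 TPM in DSS + GAA libraries, against 108, 101, 117 and 89.2 TPM in DSS libraries. Here too the overlap came from DSS + GAA replicate 1, and the log2 fold change was 0.53 (SE 0.16, limma adjusted p = 0.0329). Sdha passed in 1 and Sdhc in 2 of the 8 fits with 1 library left out; without DSS replicate 1 their adjusted p from limma was 0.0722 and 0.0769. Sdhd had 194, 338, 461 and 469 TPM in DSS + GAA libraries, against 331, 321, 318 and 255 TPM in DSS libraries. Its DSS + GAA libraries spanned both sides of the DSS libraries, with a log2 fold change of 0.18 (SE 0.27, limma adjusted p = 0.629).

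Complex III, cytochrome bc1, hands electrons from coenzyme Q to cytochrome c. Of its 8 nuclear genes 4 rose (Uqcr11, Uqcrc2, Uqcrb and Uqcrq), none fell, and all 8 values were positive, with a median of 0.49. Uqcr11, a small accessory subunit, had 104, 141, 177 and 158 TPM in DSS + GAA replicates 1, 2, 4 and 5, against 92.3, 95.5, 96.6 and 95.2 TPM in DSS replicates 1, 2, 4 and 5. The DSS libraries lay close together and the DSS + GAA libraries were spread above them, with a log2 fold change of 0.58 (SE 0.16, limma adjusted p = 0.0234). Uqcrc2, a core protein of the matrix side, had 287, 378, 418 and 446 TPM in DSS + GAA libraries, against 263, 258, 282 and 229 TPM in DSS libraries. The groups did not overlap, and the log2 fold change was 0.55 (SE 0.16, limma adjusted p = 0.0262).

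Uqcrb, a subunit near the quinone site, had the highest mean of the nuclear complex III genes, with 992, 1171, 1342 and 1437 TPM in DSS + GAA libraries, against 861, 910.0, 952 and 766 TPM in DSS libraries. Every DSS + GAA library was above every DSS library, with a log2 fold change of 0.49 (SE 0.15, limma adjusted p = 0.0350). Uqcrfs1, the Rieske iron-sulfur protein, did not pass, with 359.7 ± 104 TPM in DSS + GAA libraries and 277 ± 31.5 TPM in DSS libraries (SD, n = 4 each). No complex III call stood in all 8 fits with 1 library left out. Leaving out DSS replicate 1, or DSS + GAA replicates 2, 4 or 5, left none passing, and 1 passed without DSS replicates 2, 4 or 5, while all 8 genes rose without DSS + GAA replicate 1. Uqcrb shares at least 95% of its sequence over at least 50% of its length with pseudogenes, so its level is uncertain where reads could be split between copies; by the same measure, 9 of the 85 nuclear rows have such a copy, among them Atp5h, Atp5k, Atp5l, Atp5o, Ndufs3 and Ndufb11.

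Complex IV, cytochrome c oxidase, reduces oxygen to water, and several of its nuclear subunits exist as a general isoform and as alternative isoforms known from muscle, lung or testis. Of its 16 tested nuclear genes 9 rose and 2 fell, and the 9 were 8 of the 11 general isoforms and the alternative isoform Cox7a1. The summed level of the 18 nuclear genes was 6066, 7521, 8390.3 and 8312 TPM in DSS + GAA replicates 1, 2, 4 and 5, against 4992, 5313, 5348 and 5224 TPM in DSS replicates 1, 2, 4 and 5. It was the sole complex whose nuclear sum did not overlap between groups, with DSS + GAA replicate 1 above every DSS library. In complex IV, 7 calls stood in all 8 fits with 1 library left out (Cox7a1, Cox7a2, Cox7b, Cox5b and Cox6b1 higher, Cox4i2 and Cox6b2 lower). The count that rose was 5 without DSS replicate 1 and 7 to 11 in the other 7 of these fits.

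Cox7a1, the isoform known from heart and skeletal muscle (chr7:30184144-30186078), had the largest log2 fold change of the tested members. It had 36.8, 42.1, 41.3 and 46.4 TPM in DSS + GAA replicates 1, 2, 4 and 5, against 15.2, 16.3, 12.4 and 12.96 TPM in DSS replicates 1, 2, 4 and 5. The lowest DSS + GAA library had more than the highest DSS library by a wide margin, DSS + GAA replicate 1 included, and the log2 fold change was 1.49 (SE 0.13, limma adjusted p = 0.00263). Cox7a2, its general counterpart, had 632, 766, 862 and 793 TPM in DSS + GAA libraries, against 460.3, 476, 499.6 and 487 TPM in DSS libraries. The groups did not overlap, and the log2 fold change was 0.66 (SE 0.13, limma adjusted p = 0.00818). Cox7a1 made up 5.82%, 5.50%, 4.79% and 5.85% of the Cox7a2 level in DSS + GAA libraries, against 3.29%, 3.43%, 2.48% and 2.66% in DSS libraries, so that the balance between both isoforms moved as well. The log2 ratio differed by 0.83, with no overlap (two-sided exact permutation p = 0.0286, the smallest that 4 against 4 libraries allow; 0.0400 after Benjamini-Hochberg over 7 isoform pairs). Of 3 tested skeletal muscle and heart markers none rose and 1 fell, and their sum over all listed markers was 6.58 to 10.6 TPM in DSS + GAA libraries and 6.66 to 13.7 TPM in DSS libraries.

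Cox6b1, a subunit on the intermembrane side, had the highest mean of the nuclear complex IV genes, with 1081, 1283, 1384 and 1429 TPM in DSS + GAA libraries, against 800.3, 852, 934 and 805 TPM in DSS libraries. Every DSS + GAA library was above every DSS library, with a log2 fold change of 0.60 (SE 0.14, limma adjusted p = 0.0118). Its counterpart Cox6b2 (chr7:4751792-4753094), known from testis, had 6.73, 4.67, 3.04 and 3.50 TPM in DSS + GAA libraries, against 16.8, 9.29, 11.9 and 8.44 TPM in DSS libraries. Here the order was turned round, with every DSS + GAA library below every DSS library and a log2 fold change of -1.20 (SE 0.26, limma adjusted p = 0.0109). With Cox6b1 separate upward and Cox6b2 downward, their ratio had to separate too. Its exact p over all 8 libraries was therefore fixed by the single genes and adds nothing to them. The Cox6b2 to Cox6b1 ratio was 0.363% ± 0.185 in DSS + GAA libraries and 1.38% ± 0.492 in DSS libraries (SD, n = 4 each; two-sided exact permutation p = 0.0286, adjusted 0.0400), and it missed the threshold without DSS replicates 1 or 4 (p = 0.0571).

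Cox4i1, the general isoform of the largest nuclear subunit, had 823, 1040.0, 1198 and 1190.4 TPM in DSS + GAA libraries, against 711, 694, 718 and 739 TPM in DSS libraries. The groups did not overlap, and the log2 fold change was 0.56 (SE 0.15, limma adjusted p = 0.0203), which missed the threshold without DSS + GAA replicates 2 or 4 or DSS replicate 1 (adjusted p = 0.0565, 0.0564 and 0.0623). Its counterpart Cox4i2 (chr2:152754173-152765037), known from lung and induced by low oxygen, had 0.204, 1.07, 0.517 and 0.731 TPM in DSS + GAA libraries, against 3.43, 2.85, 1.53 and 2.44 TPM in DSS libraries. All of these levels are low, every DSS + GAA library was below every DSS library, and the log2 fold change was -1.13 (SE 0.23, limma adjusted p = 0.00857), on a scale that understates changes of low genes. With quantile normalization Cox4i2 did not pass (limma adjusted p = 0.0685). Since Cox4i1 was separate upward and Cox4i2 downward, their ratio had to separate, so its exact p over all 8 libraries was fixed. The ratio test adds nothing to the results of the single genes. The Cox4i2 to Cox4i1 ratio was 0.0580% ± 0.0332 in DSS + GAA libraries and 0.359% ± 0.116 in DSS libraries (SD, n = 4 each; two-sided exact permutation p = 0.0286, adjusted 0.0400).

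Ndufa4l2, the third tested alternative isoform with a negative log2 fold change, is known as a gene induced by hypoxia. It had 1.91, 1.53, 1.34 and 0.30 TPM in DSS + GAA libraries, against 3.27, 2.20, 2.67 and 1.60 TPM in DSS libraries, and it did not pass (log2 fold change -0.64, SE 0.27, limma adjusted p = 0.0949). The groups overlapped by 1 library each. Its general counterpart Ndufa4, once counted in complex I and now known as a subunit of complex IV, had 190.2, 238, 271 and 264 TPM in DSS + GAA libraries, against 282, 298, 237 and 204 TPM in DSS libraries, with overlapping groups and a log2 fold change of -0.08 (SE 0.17, limma adjusted p = 0.737). With trimmed mean scaling that value was 0.19. Cox6a2 and Cox8b, isoforms known from heart and skeletal muscle, were too low to be tested here. In the authors' deposited table Cox6a2 was higher and Cox8b lower, both at a false discovery rate under 0.05. Cox6a2 had 0.473, 0.225, 0.719 and 0.242 TPM in DSS + GAA libraries and was listed at 0 in 3 DSS libraries and at 0.246 TPM in the fourth, and Cox8b had 0.447, 1.27, 0 and 0.457 TPM in DSS + GAA libraries, against 0.969, 3.47, 0.955 and 2.78 TPM in DSS libraries.

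Markers of stromal cells were counted beside Cox4i2 and Cox6b2, where 28.2% of all tested genes fell. Of the endothelial markers 5 of 7 fell, of the fibroblast markers 3 of 7 fell, and of the enteric neuron and glia markers 9 of 9 fell. The smooth muscle markers had 1 of 8 lower, a smaller share than among all tested genes. The summed endothelial markers were at 24.3 to 98.3 TPM in DSS + GAA libraries and 94.98 to 168 TPM in DSS libraries. Fibroblast markers summed to 402 to 1409.6 TPM in DSS + GAA libraries and 1626 to 4697 TPM in DSS libraries, and neuron and glia markers to 147 to 433 TPM in DSS + GAA libraries and 789 to 1544 TPM in DSS libraries. Their part in the lower Cox4i2 and Cox6b2 levels was not tested.

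The general isoforms Cox6a1 and Cox8a are subunits near the dimer face and the inner membrane. Cox6a1 had 459.7, 592, 546 and 536 TPM in DSS + GAA libraries, against 284, 326, 346 and 429 TPM in DSS libraries, and Cox8a had 345, 453, 479.7 and 443 TPM in DSS + GAA libraries, against 235, 247, 307 and 318 TPM in DSS libraries. Both were higher in every DSS + GAA library than in every DSS library, with log2 fold changes of 0.63 (SE 0.15) and 0.64 (SE 0.16) and limma adjusted p of 0.0151 and 0.0157. Without DSS replicate 1 the adjusted p from limma was 0.0536 for Cox6a1 and 0.0569 for Cox8a, and without DSS + GAA replicate 2 it was 0.0509 for Cox6a1. Cox7b and Cox5b also rose, by 0.75 and 0.64 on the log2 scale, and Cox6c rose by 0.49, a call that was lost without DSS replicate 1 (limma adjusted p = 0.0624). Cox7c had 619 ± 69.9 TPM in DSS + GAA libraries and 489.9 ± 29.2 TPM in DSS libraries (SD, n = 4 each), with every DSS + GAA library above every DSS library, and still did not pass (log2 fold change 0.33, SE 0.13, limma adjusted p = 0.0692). The pseudogene Cox5b-ps, which matches Cox5b at 99.2% over its whole length, had 4.35 ± 1.65 TPM in DSS + GAA libraries and 2.85 ± 0.734 TPM in DSS libraries and did not pass.

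Cox7a2l, known as a factor that joins complexes III and IV into supercomplexes, differed from Cox7a2. It had 184, 232, 313 and 351 TPM in DSS + GAA libraries, against 276, 254, 234 and 247 TPM in DSS libraries. The DSS + GAA libraries lay on both sides of the DSS libraries, with a log2 fold change of 0.05 (SE 0.20, limma adjusted p = 0.852). Relative to Cox7a2 it was at 35.0% ± 6.95 in DSS + GAA libraries and 52.6% ± 5.50 in DSS libraries (SD, n = 4 each; two-sided exact permutation p = 0.0286, adjusted 0.0400), and p was 0.0571 without any 1 of the 4 DSS libraries.

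**Figure D3:**
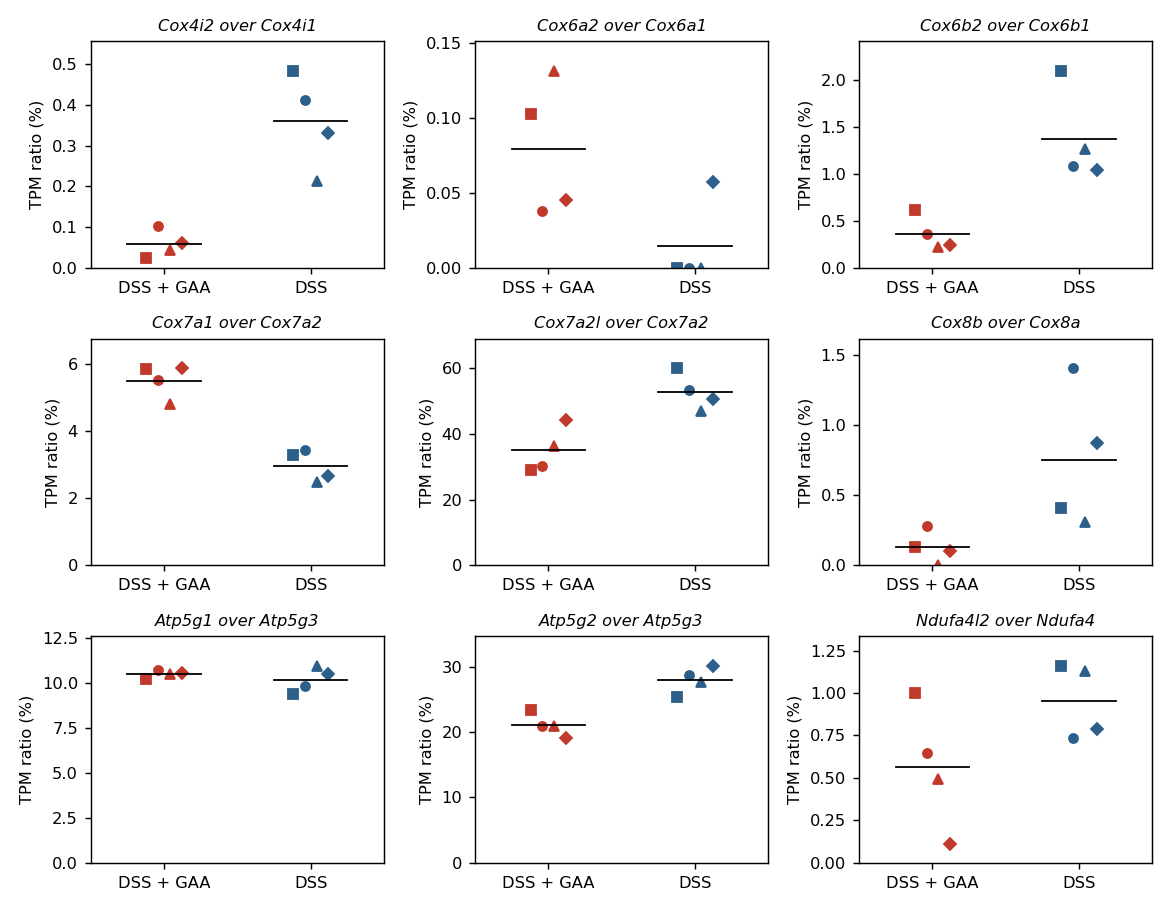
Ratio of TPM (vertical axis, percent) between paired genes in each library, with DSS + GAA (red) left of DSS (blue), squares, circles, triangles and diamonds for replicates 1, 2, 4 and 5, and a bar at the group mean. Cox7a1 over Cox7a2 is higher in all 4 DSS + GAA libraries, at 4.79% to 5.85%, than in the DSS libraries, at 2.48% to 3.43%, while Cox4i2 over Cox4i1 and Cox6b2 over Cox6b1 are lower in all 4.

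Complex V, the ATP synthase, has a catalytic head, a peripheral stalk, a membrane ring and small membrane subunits. Of its 18 nuclear genes 11 rose and none fell, and all 18 values were positive, with a median of 0.52. By role, 4 of 5 genes of the head and central stalk rose. Of the peripheral stalk 3 of 5 rose, both IDs of Atp5o among them. Of the small membrane subunits 4 of 5 rose, and none of the 3 genes of the ring did. In the authors' deposited table these counts were 5, 3 and 3 of 5, and 2 of the 3 ring genes passed higher. Without DSS + GAA replicate 1 the ring genes Atp5g1 and Atp5g3 passed here as well. Atp5j2, subunit f in the membrane (chr5:145183698-145192062), had 365, 485, 546 and 515 TPM in DSS + GAA replicates 1, 2, 4 and 5, against 263, 268, 322 and 241 TPM in DSS replicates 1, 2, 4 and 5. Every DSS + GAA library was above every DSS library, and the log2 fold change of 0.80 (SE 0.16, limma adjusted p = 0.00846) was the highest of the complex.

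Atp5j, subunit F6 of the peripheral stalk, had 217, 257, 275 and 280.3 TPM in DSS + GAA libraries, against 183, 175, 196 and 155 TPM in DSS libraries. The groups did not overlap, with a log2 fold change of 0.53 (SE 0.13, limma adjusted p = 0.0148). Atp5e, subunit epsilon of the central stalk, had 298, 396, 403 and 432 TPM in DSS + GAA libraries, against 248, 253, 284 and 221 TPM in DSS libraries. Its groups were separate as well, with a log2 fold change of 0.59 (SE 0.15, limma adjusted p = 0.0164). Atp5b, the catalytic beta subunit, had the highest mean of the nuclear members, with 1161, 1459, 1775 and 1757 TPM in DSS + GAA libraries, against 1058, 963, 1168 and 811 TPM in DSS libraries. DSS + GAA replicate 1 lay just below the highest DSS library, and the log2 fold change was 0.61 (SE 0.18, limma adjusted p = 0.0301).

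Atp5j2 and Atp5j passed in all 8 fits with 1 library left out, and the other 9 complex V calls did not. The count that rose was 2 without DSS + GAA replicate 2 or DSS replicate 1, 3 without DSS + GAA replicates 4 or 5, 4 without DSS replicates 2 or 5, 5 without DSS replicate 4, and, when DSS + GAA replicate 1 was the library left out, 17. Atp5b passed in 2 of the 8, and Atp5e in 6, with a limma adjusted p of 0.0517 without DSS + GAA replicate 2 and 0.0539 without DSS replicate 1. The others that rose were Atp5mpl, Atp5md, Atp5k, Atp5a1, Atp5d and Atp5o, with log2 fold changes of 0.36 to 0.69, and among the 11 Atp5o is counted once for each of 2 listed IDs. The annotation places those IDs at overlapping sites on the minus strand, chr16:91684398-91926982 and chr16:91925214-91931687, and their TPM kept a ratio between 1.63 and 1.68 in all 8 libraries, so they are not independent. Atp5j overlaps the gene Gabpa on the other strand, and without a stated strand protocol reads of the overlap cannot be told apart.

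Atp5g1, Atp5g2 and Atp5g3 encode the same mature ring subunit with different import signals. Atp5g3 was the most abundant, with 238, 379, 482 and 483 TPM in DSS + GAA libraries, against 294, 291, 285 and 251 TPM in DSS libraries. DSS + GAA replicate 1 was below all DSS libraries and the other 3 were above them, with a log2 fold change of 0.44 (SE 0.22, limma adjusted p = 0.144). Atp5g1 had 24.4, 40.8, 50.8 and 51.0 TPM in DSS + GAA libraries, against 27.7, 28.6, 31.3 and 26.4 TPM in DSS libraries, in the same pattern (log2 fold change 0.48, SE 0.22, limma adjusted p = 0.117). Atp5g2 had 55.7, 79.3, 101 and 92.0 TPM in DSS + GAA libraries, against 74.6, 83.7, 78.9 and 75.7 TPM in DSS libraries, around the same level in both groups (log2 fold change 0.03, SE 0.18, limma adjusted p = 0.894). Relative to Atp5g3, Atp5g2 was at 21.1% ± 1.78 in DSS + GAA libraries and 28.0% ± 2.00 in DSS libraries, with no overlap (SD, n = 4 each; two-sided exact permutation p = 0.0286, adjusted 0.0400). The Atp5g1 to Atp5g3 ratio was 10.5% ± 0.220 in DSS + GAA libraries and 10.2% ± 0.691 in DSS libraries (exact permutation p = 0.486), and the Ndufa4l2 to Ndufa4 ratio was 0.564% ± 0.368 in DSS + GAA libraries and 0.953% ± 0.221 in DSS libraries (exact permutation p = 0.143, adjusted 0.167).

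The mitochondrially encoded genes together held 8.10%, 9.12%, 8.10% and 10.3% of all TPM in DSS + GAA replicates 1, 2, 4 and 5, against 9.40%, 12.4%, 9.10% and 10.8% in DSS replicates 1, 2, 4 and 5. These shares overlapped. Of the 13 genes, 12 had a negative log2 fold change, as had 10152 of all 14217 tested genes. With trimmed mean scaling 9 of the 13 were negative, and with median centring 8. Among the 13, mt-Nd3 was the sole one with every DSS + GAA library below every DSS library, an order found in 27.6% of all tested genes. None passed here or with trimmed mean scaling, while 2 were lower with quantile normalization and 3 with length and GC trends removed. Of all tested genes, 11.3% and 28.3% fell in these 2 settings. The count was 1 lower when DSS + GAA replicate 5 or DSS replicate 4 was left out, where 21.3% and 19.1% of all tested genes fell.

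The complex I genes mt-Nd1 to mt-Nd6 and mt-Nd4l encode the proton-pumping membrane arm. All 7 had negative values, with a median of -0.44. mt-Nd6, which is encoded on the opposite strand and overlaps the end of mt-Nd5, had the smallest p of the 13. It had 4116, 4323, 3730.2 and 5157 TPM in DSS + GAA replicates 1, 2, 4 and 5, against 5889.9, 7896, 4893 and 6401 TPM in DSS replicates 1, 2, 4 and 5. The groups overlapped by 1 library each, and the log2 fold change was -0.52 (SE 0.18, limma adjusted p = 0.0526). Without a stated strand protocol, reads from the mt-Nd5 strand cannot be told from those of mt-Nd6, so its level is uncertain. mt-Nd5 itself had a log2 fold change of -0.44 (SE 0.17). mt-Nd3 had the largest change, with 194, 211, 167 and 188 TPM in DSS + GAA libraries, against 292, 511, 219 and 229 TPM in DSS libraries. DSS replicate 2 stood far above the rest, and the log2 fold change was -0.63 (SE 0.25, limma adjusted p = 0.0774).

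mt-Co1, the catalytic subunit of complex IV, was the most abundant member. It had 37484, 41102, 36523 and 44609.8 TPM in DSS + GAA libraries, against 35749.6, 47164, 35756 and 44858 TPM in DSS libraries. Both groups covered the same range, and the log2 fold change of -0.03 (SE 0.17, limma adjusted p = 0.914) was the smallest of the 13 in size; it was 0.25 with trimmed mean scaling. mt-Co3, another core subunit of complex IV, was the sole one with a positive value (log2 fold change 0.16, SE 0.36, limma adjusted p = 0.746). mt-Cytb, the cytochrome b of complex III, had 15329 ± 2407 TPM in DSS + GAA libraries and 18771 ± 2081 TPM in DSS libraries (SD, n = 4 each; limma adjusted p = 0.192). The complex V genes mt-Atp6 and mt-Atp8 had log2 fold changes of -0.48 (SE 0.36) and -0.54 (SE 0.33) and did not pass.

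The 13 genes fell into a high and a low block along the genome. The 6 neighbours mt-Co2, mt-Atp8, mt-Atp6, mt-Co3, mt-Nd3 and mt-Nd4l (chrM:7013-10173) had 74.9 to 752 TPM in DSS + GAA libraries and 103 to 1057 TPM in DSS libraries, while the other 7 had 3041 to 44609.8 TPM in DSS + GAA libraries and 4206 to 47164 TPM in DSS libraries. mt-Nd4l was the lowest, with 106, 119, 74.9 and 122 TPM in DSS + GAA libraries, against 110.5, 237, 103 and 138 TPM in DSS libraries. The nuclear genome carries unprocessed pseudogenes of this stretch at chr1:24611535-24615565 in GENCODE vM21. Over nearly their whole length, mt-Co2, mt-Atp6, mt-Co3 and mt-Nd4l matched a copy there at 100% identity and mt-Nd3 at 99.7%, and mt-Nd4, which is in the high block, matched at 100% over 63.6% of its length. mt-Co1 matched a copy on chr2 at 97.6%. The levels of these genes are therefore uncertain where reads could be split between copies or left out, and the part of the copies in the low block was not tested. Summed over the low block alone, DSS + GAA libraries had 1949 ± 660 TPM and DSS libraries 2638 ± 1081 TPM, and over the other 7 genes DSS + GAA libraries had 87030.4 ± 10183 TPM and DSS libraries 101643 ± 14141 TPM (SD, n = 4 each).

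**Figure D4:**
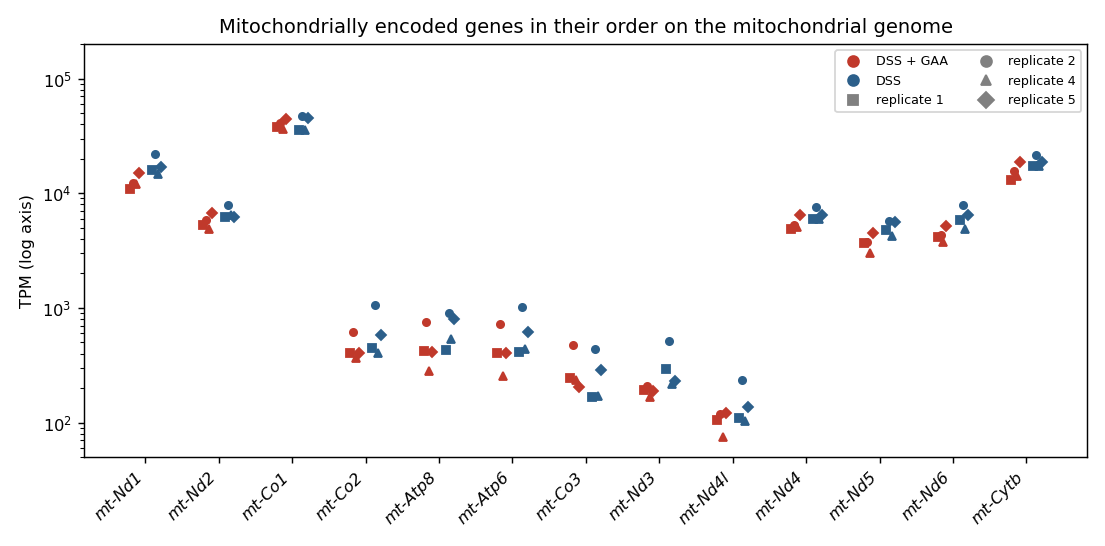
TPM (vertical log axis) of the 13 mitochondrially encoded genes in their order along the mitochondrial genome (horizontal axis), with DSS + GAA in red left of DSS in blue and a marker shape per replicate number. The 6 genes from mt-Co2 to mt-Nd4l lie between 74.9 and 1057 TPM and the other 7 above 3041 TPM, and the groups overlap in 12 of the 13 genes.

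Genes that build and feed the chain were counted in lists of their own, to be read against 5.96% of all tested genes higher and 28.2% lower. Of the assembly factors, which are needed to put complexes together and are no part of them, none of 16 for complex I, 4 for complex II, 6 for complex III and 5 for complex V passed, with medians of -0.07, 0.06, 0.02 and -0.08. Of 23 assembly factors of complex IV, 3 rose and 3 fell. Cox14 had 29.4, 39.8, 42.9 and 44.0 TPM in DSS + GAA libraries, against 19.4, 19.3, 26.0 and 23.6 TPM in DSS libraries, and rose by 0.79 (SE 0.16, limma adjusted p = 0.00884). Sco1, a copper chaperone, rose by 0.56. Higd1a, known as a gene induced by hypoxia, had 74.3, 62.9, 56.5 and 70.6 TPM in DSS + GAA libraries, against 120, 156, 108 and 172 TPM in DSS libraries, and fell by 1.04 (SE 0.17, limma adjusted p = 0.00554).

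Cycs, the cytochrome c that links complexes III and IV and is not matched by the symbols, had 558, 517, 511 and 482 TPM in DSS + GAA libraries, against 271, 309, 331 and 263 TPM in DSS libraries. Its groups did not overlap, DSS + GAA replicate 1 was the highest library, and it rose by 0.82 (SE 0.12, limma adjusted p = 0.00531). Cyc1, the cytochrome of complex III, and Ndufab1, the acyl carrier subunit of complex I, did not pass. Of 17 citric acid cycle genes 4 rose and none fell, where 5.96% of all tested genes rose and 28.2% fell. Among the 4 were Cs, citrate synthase (log2 fold change 0.58, SE 0.13), and Ogdh, of the oxoglutarate dehydrogenase complex (0.70, SE 0.17), with limma adjusted p of 0.0105 and 0.0141. None of 13 coenzyme Q synthesis genes passed.

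None of 15 genes of mitochondrial DNA replication and transcription passed, and their median was -0.17. Of 16 genes of mitochondrial RNA processing 1 fell (Grsf1, log2 fold change -0.50), and of 20 import genes 2 fell (Tomm20 by 0.80 and Tomm70a by 0.63). Both shares lie under the 28.2% of all tested genes that fell. Among the carriers, Slc25a5 and Slc25a4 exchange ADP and ATP across the inner membrane and went opposite ways. Slc25a5 had 1757, 2332, 2398 and 2832 TPM in DSS + GAA libraries, against 1197, 1150.1, 1439 and 1365 TPM in DSS libraries, and rose by 0.84 (SE 0.17, limma adjusted p = 0.00883). Slc25a4, the form known from muscle and heart, had 101, 71.8, 44.8 and 45.3 TPM in DSS + GAA libraries, against 158, 123, 128 and 139 TPM in DSS libraries, and fell by 1.12 (SE 0.25, limma adjusted p = 0.0115).

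Of 13 nuclear regulators 3 rose and 2 fell, against 5.96% higher and 28.2% lower among all tested genes. Ppargc1a, a coactivator of respiratory genes, had 6.58, 16.1, 24.3 and 25.2 TPM in DSS + GAA libraries, against 8.34, 4.43, 6.57 and 7.56 TPM in DSS libraries. DSS + GAA replicate 1 lay inside the DSS range and the other 3 above it, with a log2 fold change of 1.18 (SE 0.38, limma adjusted p = 0.0397). Esrra, the nuclear receptor ERR alpha, had 61.4, 85.8, 94.7 and 97.2 TPM in DSS + GAA libraries, against 56.7, 55.7, 59.4 and 51.6 TPM in DSS libraries. Every DSS + GAA library was above every DSS library, with DSS + GAA replicate 1 the nearest to them, and the log2 fold change was 0.57 (SE 0.15, limma adjusted p = 0.0208). Ppard, a fatty acid receptor, rose by 0.58. Hif1a and Yy1, named after their values were seen, fell by 0.54 and 0.37, and Nrf1 and Gabpa did not pass.

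**Figure D5:**
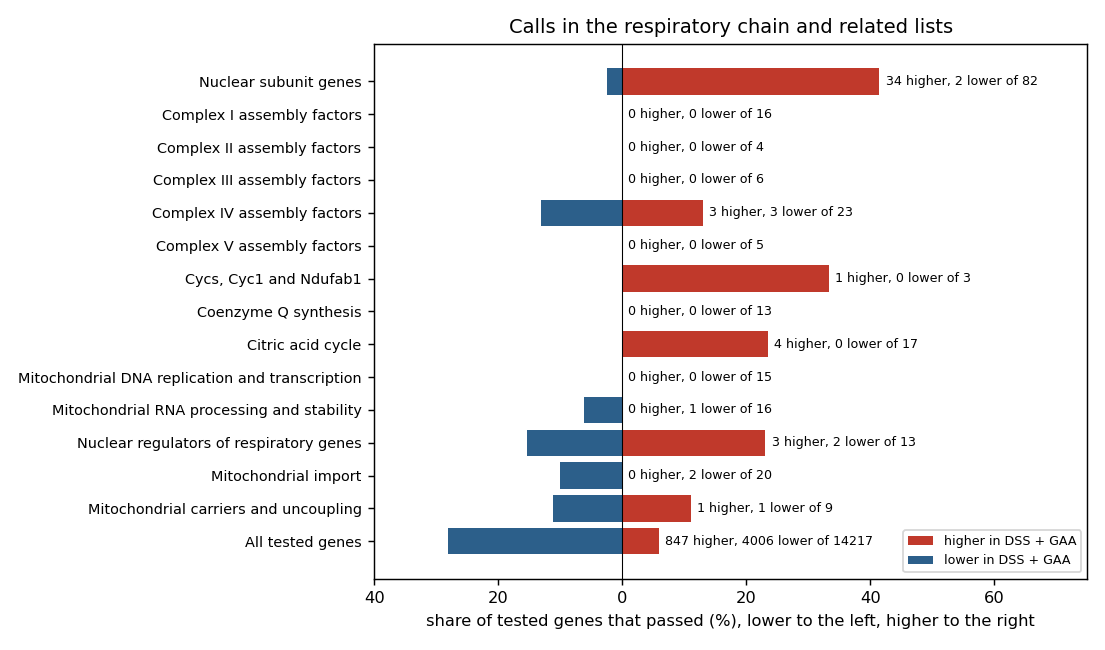
Share of tested genes that passed (horizontal axis, percent; higher in DSS + GAA to the right in red, lower to the left in blue) for the nuclear subunit genes, 13 related lists and all tested genes (vertical axis). The nuclear subunit genes have 34 higher and 2 lower of 82, and the assembly factor lists of complexes I, II, III and V have none.

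Markers of several cell types passed between the groups, where 5.96% of all tested genes rose and 28.2% fell, and their part in the nuclear subunit result was not tested. Of the epithelium markers 3 of 10 rose and none fell, and of the colonocyte markers 5 of 10 rose and 1 fell. Goblet cell markers had 3 of 8 higher, macrophage markers 2 of 8 lower, a share near that of all tested genes, B and plasma cell markers 0 of 7 passing and adipocyte markers 1 of 2 tested lower. Of the neutrophil markers 8 of 10 fell, with sums of 198 to 719 TPM in DSS + GAA libraries and 2147 to 6514 TPM in DSS libraries, and of the T and NK cell markers 7 of 8 rose, with sums of 137 to 385 TPM in DSS + GAA libraries and 71.4 to 97.1 TPM in DSS libraries. Set against the epithelium markers of the same library, the summed nuclear subunit genes were at 86.4%, 105%, 125% and 127% in DSS + GAA replicates 1, 2, 4 and 5, against 128%, 116%, 111% and 95.2% in DSS replicates 1, 2, 4 and 5. On that scale the groups overlapped.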

How the data were processed

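The authors deposited 1 table with a TPM value per gene and library, computed before deposit from polyA-selected, paired-end reads per the labels' protocols. The deposited table also holds the authors' own comparison (log2 fold change, p-value and false discovery rate), named as such where printed. The build was mm10 and GATK, SAMtools, edgeR, Subread, featureCounts, Bowtie2, HISAT2 and Trimmomatic were listed, without versions or roles, per the submitters' processing notes. TPM keeps no depth, so no counting interval could be given, and the precision rests on 4 libraries per group.

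TPM values were compared with limma 3.58.1 (R 4.3.3, statmod 1.5.0) on log2(TPM + 1), for genes with at least 1 TPM in at least 4 of 8 libraries, with no term but group and with robust empirical Bayes and a variance trend. Two-sided p-values were adjusted (Benjamini-Hochberg) across the 14217 tested genes. The script was tested on simulated data. For isoform ratios, all 70 assignments of the libraries were enumerated in an exact permutation test (two-sided). Copies of members were sought among GENCODE vM21 transcripts with BLAST 2.17.0. Values in every library are given for the members with the smallest p of each complex (3 each, all 4 of complex II), those with the highest mean, isoform pairs, members that fell, and the mitochondrially encoded genes at the extremes; up to 3 genes with the smallest p are named from a related list. The members, gene lists, roles and motifs were chosen with earlier results of these data known. Alternatives changed the pseudocount, filter, scaling, weights, variance settings, length and GC trends, replicate block and libraries. Some single-gene values are not reported here.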

Additional observations from a re-analysis of the deposited data

Results flagged for a closer look

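In 10 of the 196 groups of 4 values that were looked at (each of the 98 members in each group), 1 library lay so far from the other 3 that Dixon's criterion at the 95% level marked it. Chance marks about 1 group in 20, and no pattern is read from these. DSS + GAA replicate 1 was low for Ndufa11 (59.4 TPM) and Ndufa13 (80.7 TPM). DSS + GAA replicate 2 was high for mt-Co2 (620.3 TPM) and mt-Co3 (479.5 TPM). DSS replicate 2 was high for mt-Nd2 (7945 TPM). DSS replicate 5 was low for Ndufb3 (183 TPM), Ndufc1 (24.0 TPM), Atp5pb (365 TPM) and Sdhd (255 TPM) and high for Cox6a2 (0.246 TPM, listed at 0 in the other 3 DSS libraries).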

How the results depend on the processing

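Leaving out 1 library at a time moved the counts of passing genes over wide ranges. The ranges were 361 to 1277 higher and 1676 to 4435 lower of all tested genes, 8 to 63 higher and 2 to 3 lower of the nuclear subunit genes, 0 to 1 lower of the mitochondrially encoded genes, 0 to 23, 1 to 4, 0 to 8, 5 to 11 and 2 to 17 higher for complexes I, II, III, IV and V, and 2 to 3 lower for complex IV. Trimmed mean scaling, quantile normalization and median centring gave 1890, 1677 and 2165 higher and 1648, 1601 and 1308 lower of all tested genes. Nuclear subunit genes higher were 59 with trimmed mean scaling, 65 with median centring, 57 with array quality weights and 18 with the replicate block. Of all tested genes, 13.3%, 15.2%, 8.19% and 4.78% were higher in these settings, in that order. The nuclear subunit genes had a median transcript length of 863 bases, against 3061 for all tested genes. With length and GC trends removed 25 of them were higher, against 5.67% of all tested genes. Complex I had 22 higher with trimmed mean scaling, 11 with quantile normalization, 27 with median centring and 20 with array weights. It had 3 with length and GC trends removed and 2 with the replicate block. Complex III had 7 with trimmed mean scaling, median centring or array weights, 2 with length and GC trends removed and 1 with the block. With the block complexes II and V had 1 and 5 higher, and with median centring complex V had 17. A filter at 5 TPM or quantile normalization left 1 nuclear gene lower, in complex IV. Mitochondrially encoded genes lower were 2 with quantile normalization, 1 without the variance trend and robust fit, and 3 with length and GC trends removed. Of all tested genes, 11.3%, 28.2% and 28.3% were lower in these settings, in that order. With the mitochondrially encoded genes removed there was no value for them. The labels do not say that replicate numbers pair the libraries, so the block was not used as the design. Deviations of same-numbered libraries correlated at 0.18, -0.11, 0.15 and -0.03, which cannot settle whether libraries were paired.

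Among single genes and ratios, some near 0 changed sign. mt-Co1 had a log2 fold change of 0.25, 0.28 and 0.0749 with trimmed mean scaling, median centring and array weights, and of -0.0875 to 0.0457 with 1 library left out. Ndufa4 had 0.19 and 0.22 with trimmed mean scaling and median centring, and -0.1817 to 0.0297 with 1 library left out. Cox7a2l had -0.0224 with length and GC trends removed and -0.0878 to 0.2222 with 1 library left out, and Atp5g2 had -0.0763 to 0.2059. The log2 Atp5g1 to Atp5g3 ratio was -0.0031 with a pseudocount of 5 TPM. The cause was not tested for any of these. Of 34 nuclear genes that rose, all 34 also rose with trimmed mean scaling. That scaling raised DSS + GAA libraries (factors 0.874 to 0.940) against DSS libraries (1.02 to 1.19), so it could hardly lose a higher call. With quantile normalization 29 of the 34 still rose, and 29 did without the variance trend and robust fit. With length and GC trends removed 25 did, and with the replicate block 18 did. The unknown depth limits what can be said of the lowest genes.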
